A study of Mus musculus with 3 samples.

Results

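The interleukin (IL)-1 family genes examined here were the ligands *Il1a*, *Il1b*, *Il18* and *Il33*, the soluble inhibitors *Il1rn* and *Il18bp*, and the receptors *Il1r1*, *Il1r2*, *Il1rap* and *Il1rl1*. They were taken by symbol from the gene probes of the array and are 10 of the 26840 genes with a symbol, with 21 probes in all. The list was set with earlier results of these data known. RNA of RAW 264.7 cells, a mouse macrophage line, was hybridised in 1 colour to SurePrint G3 Mouse GE arrays, with 1 array for each of 3 conditions. Cells received 50 ng/mL of lipopolysaccharide (LPS), the TLR4 ligand of Gram-negative bacteria, either alone (LPS), after *L. rhamnosus* CRL1505 (CRL1505 + LPS) or after *L. plantarum* CRL1506 (CRL1506 + LPS), the lactobacilli being added for 24 h at 50000000 cells/mL. The time with LPS is 12 h in the series design and 3 h in the descriptions of the samples. All 3 conditions contain LPS, and no array of non-stimulated cells was analysed here, so that the values compare LPS responses with each other. Each condition had a single array, which leaves the differences without a replicate check and without any test. CRL1505 + LPS was hybridised on another slide, scanned in another run, than the remaining arrays, so that slide and strain cannot be told apart for CRL1505. A change in RNA per cell and a change in the cells of the dish cannot be told apart in bulk RNA.

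IL-1α and IL-1β, the products of *Il1a* and *Il1b*, bind the receptor IL-1R1, which recruits the accessory chain IL-1RAP and signals through MyD88 to NF-κB. IL-18 and IL-33 use related receptors on the same principle, and the ST2 receptor of IL-33, encoded by *Il1rl1*, also pairs with IL-1RAP. The family is held in check by soluble inhibitors and decoys, since IL-1Ra (*Il1rn*) occupies IL-1R1 without signaling, IL-18BP (*Il18bp*) captures IL-18, and IL-1R2 (*Il1r2*) binds IL-1 without transmitting a signal. Macrophages stimulated through TLR4 are a main source of IL-1β, whose precursor is cut by caspase-1 before release.

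For *Il1b* and *Il1r2*, probes of the same gene gave different values, and for *Il18bp* 1 probe differed only at an outlier spot that was left out. The *Il1rap* probes, whose signs differed for CRL1506, are described further on without sequences. The probes printed here are shown because they stood apart from, or beside, the brightest probe of their gene. They are 60 bases long and are written 5′ to 3′ as the array files give them, without capitals because no stretch is singled out. The first *Il1b* probe, at mm9 chr2:129190880-129190939 on the minus strand, begins at base 722 of the RefSeq mRNA and gave the same direction as the brightest probe. The second *Il1b* probe, at mm9 chr2:129195465-129195524 on the minus strand, was designed on an Ensembl transcript, and the files list no RefSeq mRNA for it. The *Il1r2* probe spans 2948 bases at mm9 chr1:40168971-40171918 on the plus strand, so it crosses an intron, and begins at base 631 of the mRNA. The *Il18bp* probe lies at mm9 chr7:109164573-109164632 on the minus strand, begins at base 567 of the mRNA and carried an outlier spot on 1 array.
Il1b A_66_P114500: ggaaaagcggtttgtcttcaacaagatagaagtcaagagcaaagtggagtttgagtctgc
Il1b A_55_P2720183: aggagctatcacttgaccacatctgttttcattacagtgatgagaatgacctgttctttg
Il1r2 A_52_P417890: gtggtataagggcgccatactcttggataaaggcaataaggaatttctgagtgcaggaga
Il18bp A_52_P577386: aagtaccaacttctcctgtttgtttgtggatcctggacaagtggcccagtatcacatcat

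The 250 bases before the start of *Il1a*, *Il1b* and *Il1rn* are shown because these 3 genes of chromosome 2 were among the members that differed most between the strains, as given below. *Il1a* and *Il1b* are direct neighbours there among protein-coding genes. The sequences are from RefSeq, on GRCm38.p6, with *Il1a* at chr2:129309973-129310222 and *Il1b* at chr2:129371140-129371389 on the minus strand and the first of 3 listed *Il1rn* starts at chr2:24336610-24336859 on the plus strand. Capitals mark TATAAA, searched on the plus strand of the gene, and the AP-1 motif TGANTCA, searched on both strands.
Il1a: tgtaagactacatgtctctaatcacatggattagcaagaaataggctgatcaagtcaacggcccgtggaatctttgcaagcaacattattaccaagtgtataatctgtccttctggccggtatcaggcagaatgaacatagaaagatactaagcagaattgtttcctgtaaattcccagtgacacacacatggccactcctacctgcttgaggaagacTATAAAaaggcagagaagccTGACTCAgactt
Il1b: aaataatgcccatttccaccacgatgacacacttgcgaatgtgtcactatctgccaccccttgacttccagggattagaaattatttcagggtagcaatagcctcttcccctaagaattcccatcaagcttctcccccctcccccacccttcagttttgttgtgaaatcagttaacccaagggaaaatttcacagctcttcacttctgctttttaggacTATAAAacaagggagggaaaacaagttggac
Il1rn: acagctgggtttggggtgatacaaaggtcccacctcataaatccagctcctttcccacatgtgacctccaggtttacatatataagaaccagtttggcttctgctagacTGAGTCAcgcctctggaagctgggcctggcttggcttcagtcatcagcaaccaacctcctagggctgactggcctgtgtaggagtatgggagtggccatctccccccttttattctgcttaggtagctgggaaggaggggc

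TATAAA stood 32 to 27 bases before the start of *Il1a* and 31 to 26 bases before that of *Il1b*. An AP-1 motif stood 12 to 6 bases before the start of *Il1a* and 141 to 135 bases before the first listed start of *Il1rn*. The other *Il1rn* starts held none. Of the 15 promoters listed for the 10 members, 4 held TATAAA, those of *Il1a*, *Il1b* and *Il33*. The AP-1 motif was in 2, those of *Il1a* and the first *Il1rn* start. The NF-kB motif was in 1 start of *Il1r1* and the GAS motif TTCNNNGAA in 1 promoter, that of *Il1r2*. The CRE motif TGACGTCA and the ISRE motif were in none of them. Of all 32851 promoters of the same length, 7.59% held TATAAA, 6.75% the AP-1 motif, 3.90% the NF-kB motif, 7.02% the GAS motif, 1.55% the CRE motif and 2.98% the ISRE motif. These matches describe the letters only, and the motifs do not overlap in the promoters shown.

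A level below is the log2 intensity of a probe minus the 75th percentile over its array's gene spots, so that 0 is as bright as that percentile and 1 unit is a factor of 2. A log2 ratio is a difference of levels of the same probe between arrays, and levels of different probes cannot be compared. The scanner software called 54.5% of gene spots well above background with LPS, 48.5% with CRL1505 + LPS and 55.3% with CRL1506 + LPS. Genes past 2-fold were counted as higher or lower. The median SD of a log2 ratio over repeated spots was 0.048, 0.043 and 0.047 for CRL1505 + LPS over LPS, CRL1506 + LPS over LPS and CRL1505 + LPS over CRL1506 + LPS, and between probes of a gene it was 0.23, 0.21 and 0.32. Both describe single hybridisations and no biological variation. All 8 macrophage markers were well above background on the 3 arrays. Of 18 markers of other cell types, 6 were so with LPS, 6 with CRL1505 + LPS and 10 with CRL1506 + LPS, among them *Cd3e* and *Cd4* on each array, while 8 were so on none. For CRL1505 over LPS, the macrophage markers *Adgre1* and *Fcgr1* had log2 ratios of 2.27 and 2.40 and *Csf1r* one of -1.47, the remaining 5 being under 2-fold. For CRL1506 over LPS the macrophage markers lay between -0.87 and 1.0, the highest, *Adgre1*, being just past 2-fold. Their summed intensity, in units of the 75th percentile, was 696.0 with LPS, 671.9 with CRL1505 + LPS and 563.7 with CRL1506 + LPS, against 3.63, 3.43 and 3.62 for the other markers. Of the latter, *Col1a2* and *Cdh5* had bounds of at least 1.81 and 1.57 on the log2 scale for CRL1505 over LPS, and *Epcam* was lower for both strains. *Col1a1* had a bound of at least 1.85 for CRL1506 over LPS, from a spot that was uneven in the sense given below for *Il1b*. The part of these markers in the members' values was not tested.

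Compared with LPS alone, CRL1505 + LPS had 5 of 8 compared members at least 2-fold higher, beside 9.93% of the 15603 genes compared, and 2 at least 2-fold lower, beside 8.41% of all genes. The higher members were *Il1a*, *Il1b*, *Il18*, *Il1rn* and *Il18bp*, and the lower ones the receptors *Il1r2* and *Il1rl1*. *Il1b* was past 2-fold in 1 of 7 other normalizations for CRL1505 and in 2 of 7 for CRL1506, so it leaves these counts under most of them. In CRL1506 + LPS, 1 of 9 members was at least 2-fold higher, beside 5.67% of 16279 genes, namely *Il33* by a bound from a dim spot, and 3 were at least 2-fold lower, beside 3.53%, namely *Il1b*, *Il1r2* and *Il1rl1*. Between the strains, the 5 ligand and inhibitor genes named first were at least 2-fold higher in CRL1505 + LPS than in CRL1506 + LPS, beside 9.02% of 15780 genes, and *Il1rl1* was the 1 member at least 2-fold lower, beside 7.47%. The median log2 ratio of the compared members was 1.29 for CRL1505 + LPS over LPS, where that of all genes measured on both arrays was 0.06. For CRL1506 + LPS over LPS these medians were -0.31 and -0.06, and for CRL1505 + LPS over CRL1506 + LPS 1.47 and 0.09. The comparisons share arrays, and what is particular to the LPS array enters both ratios over LPS.

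**Figure D1:**
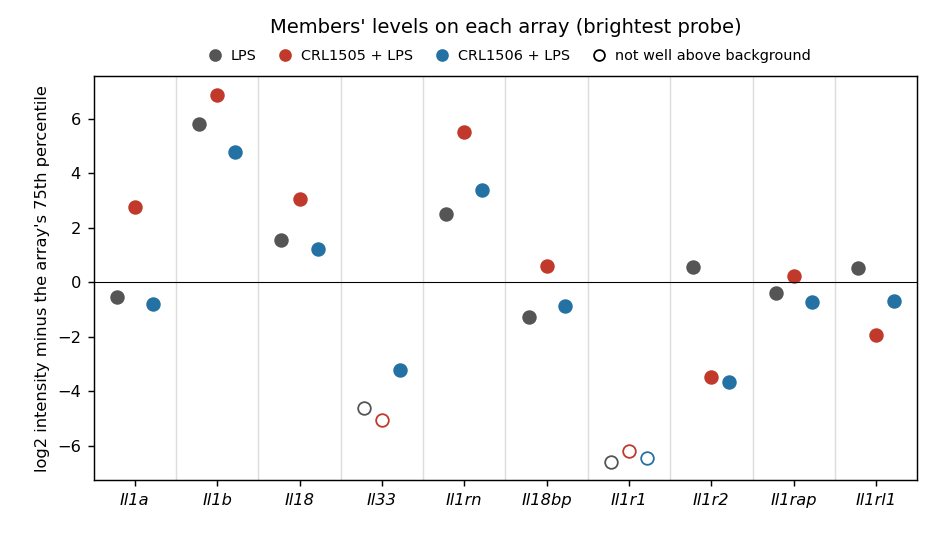
Level of the brightest probe of each member (log2 intensity minus the 75th percentile of the array) on the LPS, CRL1505 + LPS and CRL1506 + LPS arrays, with 1 array per condition and open points where the probe was not well above background. *Il1a*, *Il1b*, *Il18*, *Il1rn* and *Il18bp* were highest on the CRL1505 + LPS array, whereas *Il1r2* and *Il1rl1* were highest on the LPS array. Only points of the same gene can be compared.

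*Il1a*, whose product acts as an alarmin and is active without cutting, had a level of -0.56 with LPS, 2.77 with CRL1505 + LPS and -0.81 with CRL1506 + LPS. The CRL1505 + LPS array thus stood apart from the other two. *Il1a* was 10.02-fold higher in CRL1505 + LPS than in LPS alone (log2 ratio 3.33), and only 89 of the genes compared had a larger ratio. Its log2 ratio for CRL1506 + LPS over LPS was -0.25, which is under 2-fold and close to the spread between probes. It was measured by a single probe, at mm9 chr2:129125994-129126053.

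*Il1b*, the ligand most closely tied to inflammasome activity, was measured by 3 probes. Its brightest probe, at mm9 chr2:129190347-129190406, had a level of 5.81 with LPS, 6.87 with CRL1505 + LPS and 4.77 with CRL1506 + LPS, so that LPS alone lay between the strains. The log2 ratio over LPS was 1.07 for CRL1505 (2.09-fold higher) and -1.04 for CRL1506 (2.06-fold lower), both just past 2-fold. Over 7 other normalizations these ratios ranged from 0.56 to 1.36 and from -1.24 to -0.90, and averaged over the probes they were 0.84 and -1.12. The probe at base 722 of the mRNA, the first one printed above, had levels of 3.43, 4.93 and 2.15 and log2 ratios of 1.5 and -1.28. The probe of the Ensembl transcript had levels of 0.65, 0.60 and -0.40 and ratios of -0.05 and -1.05. The 3 probes therefore gave the same direction and similar sizes for CRL1506, while for CRL1505 the RefSeq probes were higher and the third did not differ beyond the spread between probes. On the CRL1506 + LPS array, 6 of the 20 spots nearest to the brightest probe were uneven, a spot being called uneven when its mean pixel signal exceeded its median by over 0.2 on the log2 scale, but none of the 20 nearest to the other probes was, and those probes gave -1.28 and -1.05.

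*Il18*, whose product is also cut by caspase-1 and drives IFN-γ production by lymphocytes, had a level of 1.54 with LPS, 3.05 with CRL1505 + LPS and 1.23 with CRL1506 + LPS. It was 2.85-fold higher in CRL1505 + LPS than in LPS alone (log2 ratio 1.51), and its log2 ratio for CRL1506 was -0.31. *Il33*, a nuclear alarmin of epithelial and stromal cells, was well above background with 1 probe on the CRL1506 + LPS array only, at a level of -3.23, against -4.61 with LPS and -5.07 with CRL1505 + LPS. This gave CRL1506 + LPS a value at least 2.37-fold higher than LPS (log2 ratio of at least 1.25). The spot behind it was uneven, and the other *Il33* probe was well above background on none of the arrays. Without uneven spots no *Il33* value was left, and the bound was under 2-fold with normexp (0.47) and with the deposited table (0.17).

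The soluble inhibitors were higher with CRL1505 on each probe. *Il1rn* had a level of 2.5 with LPS, 5.51 with CRL1505 + LPS and 3.4 with CRL1506 + LPS at its brightest probe, and of -0.86, 1.74 and -0.36 at the other one. Both probes put the arrays in the same order. *Il1rn* was 8.10-fold higher in CRL1505 + LPS than in LPS alone (log2 ratio 3.02, other probe 2.60), and 145 genes had a larger ratio. For CRL1506 the log2 ratios of 0.90 and 0.50 were positive but under 2-fold, and *Il1rn* was past 2-fold in 1 of 7 other normalizations, at 1.01.

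*Il18bp* had a level of -1.29 with LPS, 0.59 with CRL1505 + LPS and -0.88 with CRL1506 + LPS, and was 3.69-fold higher in CRL1505 + LPS than in LPS alone (log2 ratio 1.88). Its log2 ratio for CRL1506 was 0.41. The printed *Il18bp* probe had a log2 ratio of 1.71 for CRL1505, within the spread between probes of the first value. On the CRL1506 + LPS array the software marked its spot, with an intensity of 7032 beside 139.5 with LPS and 317.7 with CRL1505 + LPS, as an outlier, so it was left out. Kept, that spot would have given CRL1506 + LPS a log2 ratio of 5.75 over LPS.

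**Figure D2:**
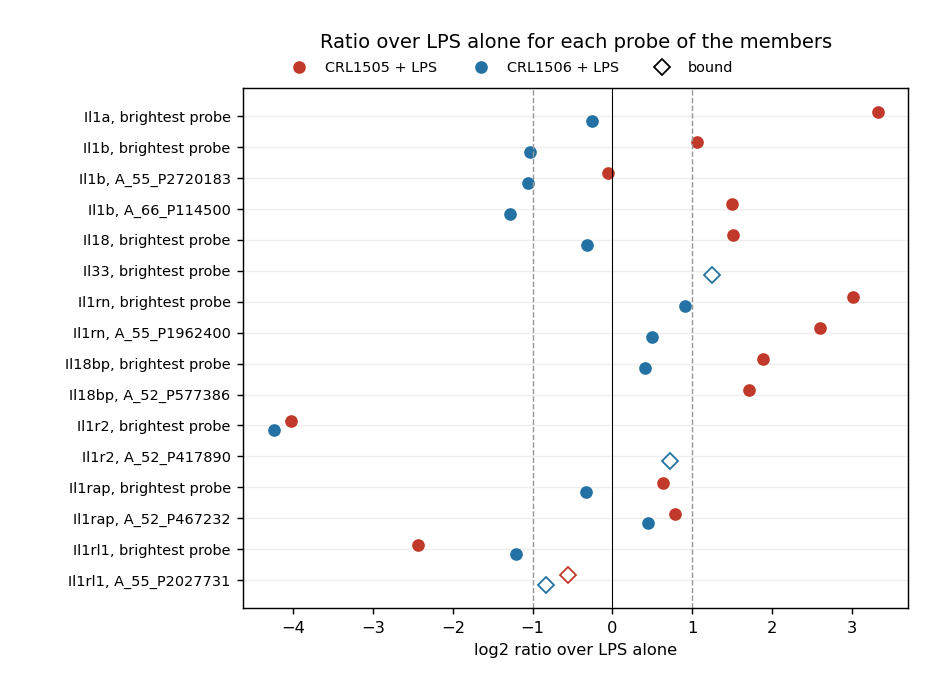
Log2 ratio over LPS alone (horizontal axis) of CRL1505 + LPS and CRL1506 + LPS for every member probe that could be compared, with dashed lines at 2-fold and diamonds for bounds, 1 array per condition. Probes of *Il1rn* and *Il18bp* lay together, and the *Il1b* probes spread from -0.05 to 1.5 for CRL1505. The second *Il1r2* probe had only a bound for CRL1506, which could lie on no other side because the probe was dim with LPS.

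A difference of log2 ratios between genes on the same pair of arrays is not moved by any constant shift of an array, and it was computed for each ligand and its inhibitor. The quantity was chosen after the values had been seen. The change of *Il1b* minus that of *Il1rn* was -1.95 for CRL1505 over LPS and -1.94 for CRL1506 over LPS, so *Il1b* lay 3.87-fold and 3.85-fold lower relative to its antagonist than with LPS alone. These values ranged from -2.06 to -1.94 and from -1.94 to -1.91 over 7 other normalizations. Of those, only quantile, cyclic loess, normexp and the deposited table could move them. Over the 6 pairs of probes they ranged from -3.07 to -1.10 for CRL1505 and from -2.18 to -1.54 for CRL1506, below 0 in each pair. Between CRL1505 + LPS and CRL1506 + LPS, the difference was -0.01 for the brightest probes and between -1.11 and 0.67 over the pairs. Because both ratios share the LPS array, their likeness is not independent.

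For *Il1a* minus *Il1rn* the difference was 0.31 for CRL1505 and -1.16 for CRL1506, the first under 2-fold and the second a 2.23-fold lower *Il1a* relative to *Il1rn* than with LPS alone. For *Il18* minus *Il18bp* it was -0.37 and -0.72, both under 2-fold. Against the other *Il1rn* probe, the difference for *Il1a* was 0.72 for CRL1505 and -0.75 for CRL1506, both under 2-fold.

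**Figure D3:**
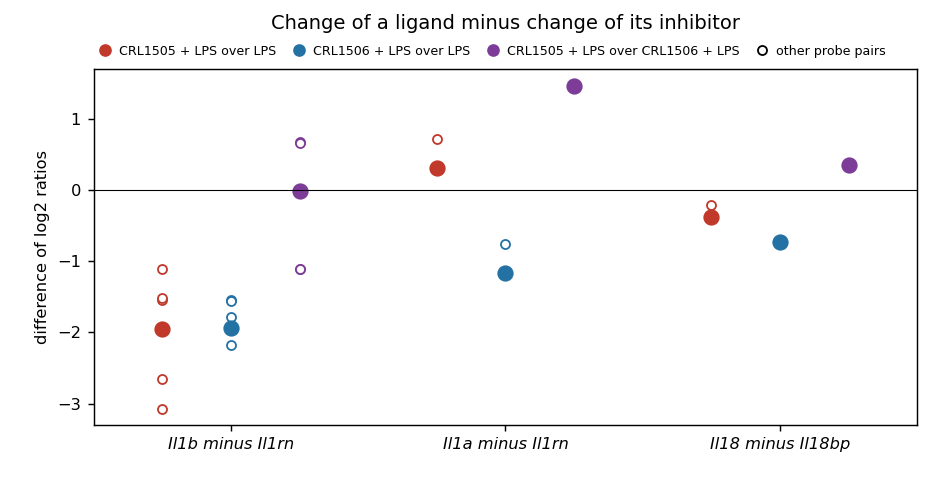
Log2 ratio of a ligand minus the log2 ratio of its soluble inhibitor (vertical axis) for CRL1505 + LPS over LPS, CRL1506 + LPS over LPS and CRL1505 + LPS over CRL1506 + LPS. Large points are the brightest probes and small open points the other measured probe pairs, which share arrays and are not replicates. All pairs of *Il1b* and *Il1rn* lay below 0 for both strains over LPS.

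Among the receptors, *Il1r1*, the signaling receptor of IL-1, was well above background on none of the arrays with its single probe, so no ratio is given. *Il1rap*, the accessory chain, was measured by 2 of 4 probes. The probe of the RefSeq transcript NM_008364 had a level of -0.39 with LPS, 0.25 with CRL1505 + LPS and -0.71 with CRL1506 + LPS, and log2 ratios of 0.63 and -0.33, both under 2-fold. The probe of NM_134103 had levels of -3.65, -2.86 and -3.21 and log2 ratios of 0.78 and 0.44. Its intensities of 59.2, 71.0 and 75.7 were not far above the lowest called well above background on those arrays, 33.3, 29.6 and 33.1. The probes gave the same sign for CRL1505 and opposite signs for CRL1506, and the 2 probes of the other transcripts were not well above background.

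*Il1r2*, the decoy receptor, had a level of 0.58 with LPS, -3.45 with CRL1505 + LPS and -3.67 with CRL1506 + LPS at its brightest probe, at mm9 chr1:40182006-40182066. With log2 ratios of -4.03 and -4.25, that is 16.3-fold and 19.0-fold lower, it lay among the lowest genes of both comparisons, with 13 and 11 genes below it. Its intensities with CRL1505 + LPS and CRL1506 + LPS were 47.2 and 54.8. These were near the lowest intensities called well above background on those arrays, 29.6 and 33.1, which limits the size and rank of these ratios. The log2 ratios were smaller with the deposited log2 table (-2.76 and -3.06) and with normexp background correction (-2.76 and -3.13). The second *Il1r2* probe, printed above, was dim, that is not well above background, with LPS and with CRL1505 + LPS. Its ratio for CRL1506 over LPS was a bound of at least 0.73 on the log2 scale. A probe bright on the CRL1506 + LPS array only can give no bound in the other direction. Over the 20 gene spots nearest to the second probe, the median log2 difference for CRL1506 over LPS was 0.83. Of its 20 nearest spots on the CRL1506 + LPS array, 4 were uneven. On the LPS array 6 of the 20 spots nearest to the brightest probe were uneven, and over the nearest gene spots the median log2 difference was -0.86 for CRL1505 over LPS and -0.17 for CRL1506 over LPS. With such areas left out, the brightest probe had no value over LPS. With these areas kept, the mean over both *Il1r2* probes for CRL1506, the bound included, was -1.76.

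*Il1rl1*, the IL-33 receptor ST2, had a level of 0.51 with LPS, -1.94 with CRL1505 + LPS and -0.70 with CRL1506 + LPS at the brightest probe of the transcript NM_001025602, which encodes the membrane form. It was highest with LPS alone, 5.43-fold lower with CRL1505 (log2 ratio -2.44) and 2.31-fold lower with CRL1506 (-1.21). Averaged with the bound of the next probe, the ratio for CRL1505 was -1.5. The second probe of this transcript was well above background with LPS alone, and it gave bounds of at least 1.48-fold and at least 1.79-fold lower. A probe bright on the LPS array only can give bounds in no other direction. The probe of NM_010743, the soluble form, was well above background on none of the arrays.

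*Il1r2*, *Il1r1* and *Il1rl1* share a stretch of chromosome 1 with other receptor genes, in the order *Il1r2*, *Il1r1*, *Il1rl2*, *Il1rl1*, *Il18r1* and *Il18rap* among protein-coding genes. Of these, *Il1r1*, *Il1rl2* and *Il18r1* were well above background on none of the arrays, and *Il18rap*, the accessory chain of the IL-18 receptor, was so with LPS alone, which put it at least 2.62-fold lower with CRL1505 and at least 2.90-fold lower with CRL1506, in 5 of 7 other normalizations each, the bounds nearest to 0 being -0.65 and -0.75. *Il1rl1* and *Il1r2*, each at its brightest probe, were highest with LPS alone, with the limits of *Il1r2* given above. *Il18rap*, bright with LPS alone, could give bounds in that direction only and adds nothing to this.

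**Figure D4:**
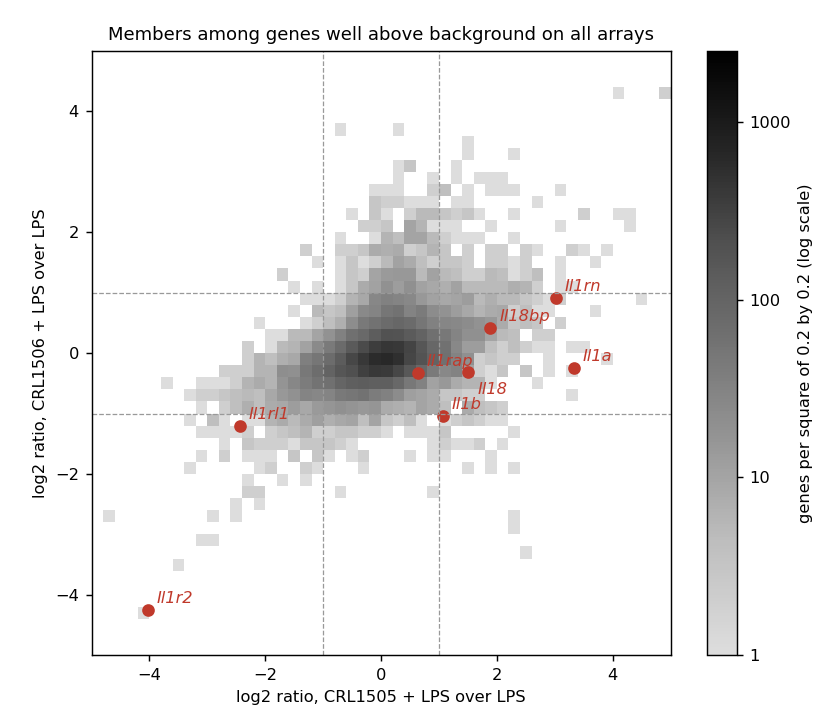
Log2 ratio over LPS of CRL1505 + LPS (horizontal) and CRL1506 + LPS (vertical) for genes well above background on all 3 arrays, in squares shaded by the number of genes, with the members in red and dashed lines at 2-fold. Both axes share the LPS array. *Il1a* and *Il1rn* lay far to the right, *Il1b* in the lower right beyond both lines, and *Il1r2* at the lower left edge.

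The direct ratio of CRL1505 + LPS over CRL1506 + LPS was largest for *Il1a*, which was 12.0-fold higher (log2 ratio 3.58), with 60 genes above it. *Il1rn* was 4.33-fold higher (2.11), with 2.10 at its other probe. *Il1b* was 4.30-fold higher (2.10), and its other probes gave 2.78 and 1.0. *Il18* was 3.53-fold higher (1.82) and *Il18bp* 2.77-fold higher (1.47). *Il1rl1* was 2.35-fold lower (-1.23), in 4 of 7 other normalizations. *Il1rap* had a log2 ratio of 0.96, and *Il1r2*, low on both arrays, one of 0.22. The bound for *Il33* was -0.89.

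Scaling moved these values together, as the median log2 ratio of all genes did. That median was 0.06 for CRL1505 over LPS and -0.06 for CRL1506 over LPS, but 0.35 and -0.26 with the array medians as reference and -0.45 and -0.19 with the spike-in probes. Relative to the median gene, *Il1b* had a log2 ratio of 1.01 for CRL1505, with 0.84 as the lowest value over the 8 normalizations, and of -0.98 for CRL1506, with -0.86 as the value nearest to 0. Relative to the median gene, *Il1a* stayed between 3.03 and 3.27 for CRL1505, *Il1rn* between 2.84 and 2.96, *Il18* between 1.38 and 1.45, and *Il18bp* between 1.48 and 1.85. A constant shift of an array cancels in values relative to the median gene. Only quantile, cyclic loess, normexp and the deposited table could therefore move them. Without that subtraction, *Il1a*, *Il18*, *Il1rn*, *Il18bp*, *Il1r2* and *Il1rl1* were past 2-fold in all 7 other normalizations for CRL1505.

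**Figure D5:**
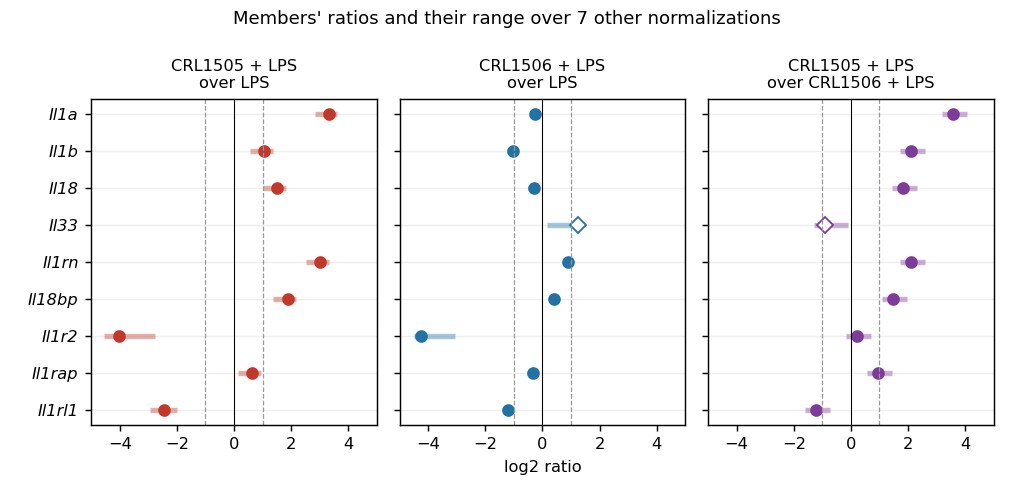
Log2 ratio of each member (points, with diamonds for bounds) and its lowest to highest value over 7 other normalizations (pale bars) in the 3 comparisons, with dashed lines at 2-fold. *Il1a*, *Il1rn*, *Il18* and *Il18bp* stayed beyond the line for CRL1505 over LPS, whereas the bar of *Il1b* crossed it there and for CRL1506.

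Beyond the members, a list of 34 further ligands, receptors, signaling molecules and factors of IL-1 maturation and release was examined. For CRL1505 over LPS, 3 of 27 compared genes were higher by 2-fold or more and 4 lower by as much, with a median log2 ratio of 0.15. For CRL1506 these numbers were 0 and 1 of 27, with a median of -0.15. For CRL1505 over CRL1506 they were 3 and 2 of 26, with a median of 0.40. They stand beside the shares of all genes given above.

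Of the 12 receptor signaling genes, *Irak3*, an inhibitory kinase relative of the IL-1 receptor complex, was the 1 gene past 2-fold over LPS, with levels of 1.66, 3.34 and 2.42 in the order LPS, CRL1505 + LPS and CRL1506 + LPS. It was 3.21-fold higher with CRL1505 (log2 ratio 1.68) and past 2-fold in all 7 other normalizations, and its ratio for CRL1506 was 0.75. *Myd88*, the adaptor, and *Nfkbiz*, an NF-κB cofactor induced by IL-1, were 2.31-fold and 2.18-fold higher in CRL1505 + LPS than in CRL1506 + LPS, in 2 and 1 of 7 other normalizations.

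Among the 11 genes of maturation and release, *Casp1*, the protease that cuts pro-IL-1β, was 2.33-fold higher with CRL1505 than with LPS alone (log2 ratio 1.22), with levels of 4.63, 5.85 and 4.87 in the same order, and past 2-fold in 4 of 7 other normalizations (0.71 to 1.52). *Casp4*, the caspase of the noncanonical inflammasome, was 2.02-fold higher, in 1 of 7 other normalizations. *Nlrc4*, an inflammasome sensor of bacterial flagellin, was 3.39-fold lower with CRL1505 (-1.76), with levels of -1.67, -3.43 and -2.0, and stayed past 2-fold in all 7 (-2.27 to -1.04). The membrane channel gene *Panx1* was 2.08-fold lower (-1.06), in 6 of 7. *Nlrp3*, the sensor most often linked to IL-1β release, had log2 ratios of -0.33 and -0.07. *Casp8* was 2.06-fold higher in CRL1505 + LPS than in CRL1506 + LPS, in 1 of 7 other normalizations, and *Nlrc4* and *Panx1* were 2.70-fold and 2.01-fold lower, in 4 of 7 (nearest to 0, -0.70) and 6 of 7.

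Among further receptors, *Sigirr*, an inhibitory member of the family, was 2.15-fold lower with CRL1505 than with LPS alone (log2 ratio -1.11), in 4 of 7 other normalizations. *Il36a* and *Il36g*, the measured IL-36 ligands, had log2 ratios of 0.56 and 0.91 for CRL1505 and of -0.29 and 0.08 for CRL1506, all under 2-fold. *Il36b*, *Il36rn*, *Il1f10*, *Il1rl2*, *Il18r1*, *Il1rapl1* and *Il1rapl2* were well above background on none of the arrays.

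The genes whose pair of ratios over LPS lay nearest to that of *Il1b*, by distance on the log2 scale over both comparisons, were *Kynu* (0.90 and -0.98), *Iqsec3* (1.13 and -1.22) and *Saa3* (1.14 and -0.85). Within a distance of 0.22, the mean spread between probes, lay 8 of 13122 genes well above background on all arrays. This likeness rests on 3 arrays.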

How the data were processed

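RNA of RAW 264.7 macrophages was measured on 3 arrays, 1 for each of LPS, CRL1505 + LPS and CRL1506 + LPS. The authors deposited spot intensities, made per the file headers by Feature Extraction 12.0.3.1, with local background and spatial trends removed and no normalization between arrays, and a table of log2 values normalized between arrays, which served as an alternative. The log2 intensity of each of 59305 gene spots was shifted by the 75th percentile of its array. The signal at that percentile was 743.1, 517.0 and 697.9 for LPS, CRL1505 + LPS and CRL1506 + LPS, and the number of arrays limited the precision. Outlier spots were removed (467, 241 and 274), no gene spot being saturated. The mean of repeated spots was taken, and a gene was represented by its brightest probe, one with an outlier spot only where the gene had no other. A probe bright enough on only 1 of the compared arrays gave a bound, with the dim side at its own intensity or at the array's lowest one called well above background, whichever was higher. Where both sides were dim, or a bound came out under 1-fold, no ratio was formed.

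The t-test that the methods name could not be run without replicates. All 10 members, list genes past 2-fold in a comparison or never above background, and the 3 genes nearest to *Il1b* were named. A few list genes under 2-fold were named after their values were seen. The members and the lists were chosen with earlier results of these data known. Alternatives were other normalizations, filters, probe choices, spot exclusions and thresholds. All 10 members matched RefSeq's promoter and gene tables (GRCm38.p6), and probe coordinates are those of the files, on mm9. Protein sequences were not used here. R 4.3.3 with limma 3.58.1 and Python 3.11.15 with NumPy 2.4.6 and pandas 2.3.3 were used, and the procedure was tested on simulated data.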

Additional observations from a re-analysis of the deposited data

Results flagged for a closer look

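For 4 members the log2 ratio over LPS at the brightest probe was positive with CRL1505 and negative with CRL1506. The difference between these ratios was 3.58 for *Il1a* (3.33 and -0.25), 2.10 for *Il1b* (1.07 and -1.04), 1.82 for *Il18* (1.51 and -0.31) and 0.96 for *Il1rap* (0.63 and -0.33). The difference was not tested, since each condition had 1 array. *Il1b* was just past 2-fold in both, a call lost in 6 of 7 other normalizations for CRL1505 and in 5 of 7 for CRL1506, and its probe of the Ensembl transcript gave -0.05 for CRL1505. The negative values of *Il1a*, *Il18* and *Il1rap* were each under 2-fold, and the other measured probe of *Il1rap* gave 0.44 for CRL1506, with a mean over probes of 0.059.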

How the results depend on the processing

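Over the alternatives for 26 ratios of single members, 268 values stayed within the spread between probes of the reported value and 59 moved beyond it without reversing a call. For *Il1b*, CRL1505 over LPS changed sign with the probe of the Ensembl transcript (-0.053), a choice made after seeing the data. *Il18bp* changed sign between the strains with outlier spots kept (-4.04), by the spot described above. Among ratios under 2-fold, *Il1r2* between the strains went from 0.22 to -0.17 with spike-in scaling. *Il1rap* for CRL1506 over LPS went from -0.33 to 0.059 with the mean over probes. Leaving out uneven spots and their neighbourhoods, also chosen after seeing the data, left 1 lower member for CRL1505, 1 for CRL1506 and 0 higher members for CRL1506, because *Il1r2*, and for CRL1506 also *Il1b* and *Il33*, then had no value at the brightest probe.

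At 4-fold, 2 members were higher for CRL1505 over LPS, 0 for CRL1506 over LPS and 3 for CRL1505 over CRL1506, and 1 and 0 were lower in the latter comparisons. The number higher for CRL1506 over LPS was 2 with cyclic loess, outlier spots kept or a 1.5-fold threshold, and 0 with normexp, the deposited table, probes bright on all arrays or uneven spots left out. The number lower for CRL1505 over CRL1506 was 0 with the median shift, normexp or the deposited table, and 2 with the percentile over detected probes, spike-in scaling, no filter on dim probes, outlier spots kept or 1.5-fold. At other thresholds, filters or spot choices the share of all genes was not computed. All genes lower between the strains numbered 1178 as reported, 434 with the median shift, 557 with normexp and 576 with the deposited table. They numbered 1815 with the percentile over detected probes and 2601 with spike-in scaling. Genes higher for CRL1506 over LPS numbered 923 as reported, 839 with cyclic loess, 424 with normexp and 414 with the deposited table. The cause was not tested beyond these constructions.

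The share of higher genes among all genes past 2-fold was 54.1% for CRL1505 over LPS, 61.6% for CRL1506 over LPS and 54.7% between the strains. It was 76.1%, 43.4% and 89.0% after the median shift and 20.1%, 51.3% and 23.9% with spike-in scaling, 51.5% for CRL1506 over LPS with quantile normalization, and 36.5% with the percentile over detected probes and 66.0% with cyclic loess between the strains. No paired analysis was possible because each condition had 1 array. Values of *Il33*, *Il1r1*, the second *Il1r2* probe and the soluble form of *Il1rl1* were limited by signal over background. The brightest *Il1r2* probe was near that limit with CRL1505 + LPS and with CRL1506 + LPS.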
